A study of Mus musculus with 21 samples.

Results

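A set of 9 genes of extracellular proteolysis was followed through zymosan peritonitis in the mouse: the matrix metalloproteinases Mmp8, Mmp9, Mmp12, Mmp13, Mmp14 and Mmp19, the membrane sheddase Adam8, and the tissue inhibitors Timp1 and Timp2. They were chosen by name, with earlier results of these data known, as genes with a probe set annotated to that symbol alone. The related lists and cell type markers below were chosen with those results known too. Counts set beside the share of all genes therefore describe these lists only. The 9 genes are 9 of 18194 measured, with 18 probe sets between them. Each gene was read from its probe set with the highest mean. A gene was tested if its signal lay above 80.6, the median of the whole table, in at least 3 arrays, and 8 of the 9 genes met this. Mmp12 did not.

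Signal on Affymetrix arrays was measured in 7 groups of 3 arrays of sorted cells from female C57BL/6 mice aged 7 to 8 weeks. Naive mice gave bone marrow monocytes (Ly-6B+, Ly-6G-). Mice injected in the peritoneal cavity with zymosan (yeast cell walls, which phagocytes ingest) gave monocytes at 4 h (Ly-6B+, Ly-6G-), cells at 18 h (Ly-6B+ or low in Ly-6B, Ly-6G-), macrophages at 72 h (F4/80+, CD11b+) and a pair of macrophage groups at 168 h. The 168 h groups were Ly-6B+ with medium to high F4/80, and Ly-6B- with high F4/80. The resident macrophages of the peritoneum, with high F4/80 and high CD11b, were again from naive mice. The labels call the arrays of a group biological replicates but do not say whether each came from separate animals or pools, so p-values measure the spread between these samples. The groups differ in tissue, time and sorting gate together, and these cannot be told apart. Sorted cells were measured in bulk, so fewer cells of a type and less RNA per cell cannot be told apart either.

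Matrix metalloproteinases are zinc enzymes that cut collagens, proteoglycans and many secreted or membrane proteins, and most are made as inactive proenzymes that other proteinases open. TIMPs bind the active site and hold the enzymes in check, and TIMP2 has a further role, since together with MMP14 it brings the proenzyme of MMP2 to the cell surface to be activated. Leukocytes use these enzymes when they cross basement membranes, trim chemokines and clear or remodel matrix. ADAM8 is a membrane-bound relative that sheds cell surface proteins and is known from neutrophils, monocytes and macrophages.

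Promoter sequences are shown for 6 of the genes, so that those highest at 4 h (Mmp8, Mmp14, Adam8, Timp1), the weakly expressed Mmp13 and the late Timp2 can be set beside each other. They are RefSeq sequences of build GRCm38.p6, from 250 bases before to 50 after a start, 5′ to 3′ on the gene's strand. For the genes shown other than Adam8, that start is the outer start of the gene. The Adam8 window lies inside the span of its gene (chr7:139978932-139995207), so it shows an internal start. The table held a promoter for 7 of the 9 genes, including Mmp12, and had no entry for Mmp9 and Mmp19. Capitals mark matches, on either strand, to 5 motifs: AP-1 (TGANTCA), C/EBP (TTGCNNAA), PU.1 (GAGGAAGT), the TATA box (TATAAA) and NF-kB.
Mmp8 (chr9:7558179-7558478, + strand): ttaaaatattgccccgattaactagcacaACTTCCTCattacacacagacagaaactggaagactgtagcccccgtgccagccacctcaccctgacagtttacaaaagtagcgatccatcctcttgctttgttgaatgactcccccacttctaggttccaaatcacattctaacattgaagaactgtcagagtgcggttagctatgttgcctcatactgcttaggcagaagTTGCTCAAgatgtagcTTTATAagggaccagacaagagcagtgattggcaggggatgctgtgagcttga
Mmp13 (chr9:7272264-7272563, + strand): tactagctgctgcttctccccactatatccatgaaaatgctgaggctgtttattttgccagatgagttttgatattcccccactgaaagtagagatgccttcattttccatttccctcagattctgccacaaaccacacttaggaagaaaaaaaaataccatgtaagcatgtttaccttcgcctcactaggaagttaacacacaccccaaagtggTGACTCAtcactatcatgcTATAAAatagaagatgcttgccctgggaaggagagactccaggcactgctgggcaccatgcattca
Mmp14 (chr14:54431348-54431647, + strand): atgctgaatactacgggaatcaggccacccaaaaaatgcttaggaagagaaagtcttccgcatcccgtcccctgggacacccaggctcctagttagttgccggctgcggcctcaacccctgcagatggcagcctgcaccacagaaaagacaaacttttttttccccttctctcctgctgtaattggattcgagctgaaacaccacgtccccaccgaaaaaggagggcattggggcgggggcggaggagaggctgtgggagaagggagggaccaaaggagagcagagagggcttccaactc
Adam8 (chr7:139992513-139992812, - strand): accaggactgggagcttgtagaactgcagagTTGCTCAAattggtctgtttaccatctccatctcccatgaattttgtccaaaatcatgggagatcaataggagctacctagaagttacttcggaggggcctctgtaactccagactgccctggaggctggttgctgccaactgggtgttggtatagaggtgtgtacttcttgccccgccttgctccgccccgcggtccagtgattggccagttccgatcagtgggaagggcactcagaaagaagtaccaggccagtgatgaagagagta
Timp1 (chrX:20869916-20870215, + strand): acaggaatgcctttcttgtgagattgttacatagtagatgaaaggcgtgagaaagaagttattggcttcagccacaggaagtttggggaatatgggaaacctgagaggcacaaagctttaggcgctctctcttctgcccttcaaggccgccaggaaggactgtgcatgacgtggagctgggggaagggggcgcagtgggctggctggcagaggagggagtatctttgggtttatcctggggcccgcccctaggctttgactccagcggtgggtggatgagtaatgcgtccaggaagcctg
Timp2 (chr11:118355362-118355661, - strand): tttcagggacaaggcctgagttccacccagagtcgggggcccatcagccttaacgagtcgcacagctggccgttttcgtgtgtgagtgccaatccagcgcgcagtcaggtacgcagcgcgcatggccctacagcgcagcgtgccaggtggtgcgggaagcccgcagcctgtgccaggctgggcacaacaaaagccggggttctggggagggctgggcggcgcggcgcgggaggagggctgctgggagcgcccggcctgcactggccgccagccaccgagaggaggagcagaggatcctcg

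Of 32851 mouse promoters of this length, 7.81% held the AP-1 letters, 10.8% the C/EBP letters, 3.2% the PU.1 letters, 13.6% the TATA letters and 8.46% the NF-kB motif. The Mmp13 window held TGACTCA at positions -35 to -29 from the start and a TATA box at -16 to -11. The Mmp8 window held TTGCTCAA, a C/EBP match, at -19 to -12, a PU.1 match on the opposite strand at -221 to -214 and a TATA match on the opposite strand at -3 to 3. The same C/EBP letters, TTGCTCAA, stood at -219 to -212 in the Adam8 window, counted from the internal start of that window. The Mmp14, Timp1 and Timp2 windows held none of the 5. A match describes these letters only, and it was not tested against the time courses below. Mmp8, Mmp12 and Mmp13 lie on chromosome 9, Mmp14 on chromosome 14, Adam8 on chromosome 7, Timp1 on chromosome X and Timp2 on chromosome 11.

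Array medians ran from 67.3 to 93.0, and arrays of a group correlated with each other across genes at r of 0.965 to 0.981. The macrophage markers (Adgre1, Csf1r, Cd68, Mertk, Fcgr1, Lyz2, Itgam, Cd14) were above the table median in 8 of 8 cases in every group from the peritoneum and in 7 of 8 in bone marrow monocytes. A list of 12 mesothelial or fibroblast markers had 10 or 11 members at or below the table median in each group. Bone marrow replicate 3 was the highest of its group in summed neutrophil marker signal. The second array of 4 h was the highest of its group in resident macrophage markers, and the second array of 72 h in B cell markers (8970.3, against 753 and 894 in the other 72 h arrays). That 72 h array was also the highest of its group in mast cell markers (9215, against 3030 and 3650) and eosinophil markers (448, against 61.8 and 136). Results that changed without these 3 arrays are given where they occur. Every fold change below is on the scale log2(signal + 15), which understates the change of a gene near the floor. A gene was called with an adjusted p under 0.05 and a log2 change of at least 1 in either direction, in limma with Benjamini-Hochberg adjustment over 12169 genes. In limma's F test over the 7 groups, 8 of the 8 genes tested differed, where 69.8% of all genes tested did, with adjusted p from 3.91e-16 (Timp2) to 0.0174 (Mmp13). Mmp13 and Mmp19 passed the filter only through arrays of 4 h and 18 h, so the filter favoured a difference for them.

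**Figure D1:**
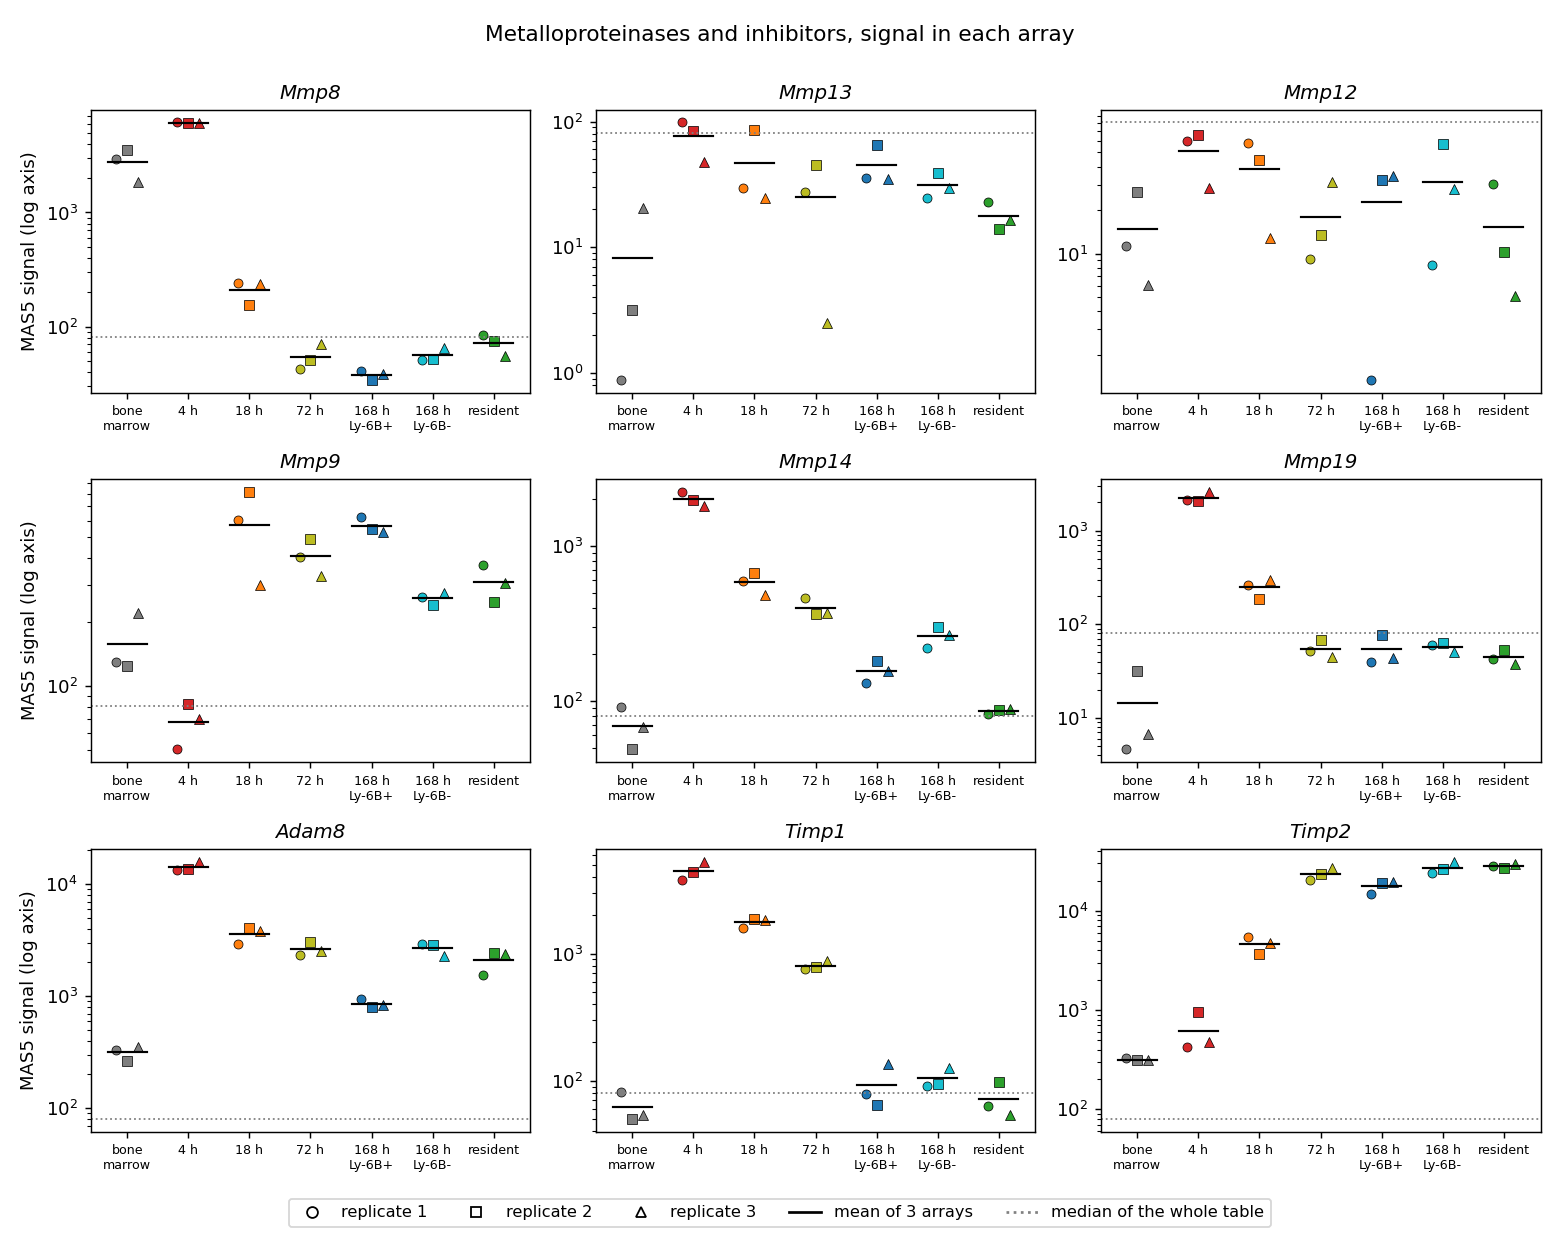
MAS5 signal (log axis) of the 9 genes in each of the 21 arrays, grouped along the horizontal axis in time order with resident macrophages at the right; symbols give the replicate number, bars the mean of 3 arrays and the dotted line the median of the whole table (80.6). Mmp14, Mmp19, Adam8 and Timp1 stand highest at 4 h, Timp2 is lowest in bone marrow and 4 h monocytes, and Mmp12 stays below the dotted line in 21 of 21 arrays.

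Mmp8, the neutrophil collagenase, which cuts fibrillar collagen, had a signal of 2958, 3498 and 1862 in bone marrow monocytes, 6149, 6047 and 6108 at 4 h, 240.4, 155 and 236 at 18 h and 42.3, 50.5 and 70.5 at 72 h. At 168 h it was 40.6, 34.2 and 38.1 in the Ly-6B+ group and 50.5, 52.0 and 65.3 in the Ly-6B- group, against 85.1, 74.96 and 54.7 in resident macrophages. Thus the transcript was high in both monocyte groups, far lower at 18 h, and near or below the table median in every macrophage group. Its rise at 4 h over bone marrow was 1.18 log2 units (SE 0.221, limma adjusted p = 0.000152), with no overlap of the arrays, and its change at 18 h against 4 h was -4.79 (adjusted p = 3.92e-12), a 27.6-fold lower signal. The rise was 0.92, below the fold required, without bone marrow replicate 3, and 0.93 without the 3 arrays named above.

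Because Mmp8 is a granule enzyme of neutrophils, the neutrophil markers were read in the same arrays. S100a9, a calcium-binding protein abundant in neutrophils, had a signal of 152, 86.6 and 159 at 4 h, against 8538, 5796 and 39146 in bone marrow monocytes. Camp, a granule antimicrobial peptide, had 103, 48.8 and 17.7 at 4 h, against 11229.8, 5844 and 31716 in bone marrow. Ltf, lactoferrin, had 103, 65.2 and 70.6 at 4 h, against 5524, 2819 and 21260.3 in bone marrow. These 3 markers ran opposite to Mmp8, though not every marker of their list did. They were lower at 4 h, where Mmp8 was higher, and within bone marrow they were highest in replicate 3, where Mmp8 was lowest. They belong to a list of 10 markers on the array, of which 9 were tested. Of these, 7 were called lower at 4 h, where 14.5% of all genes were, and 0 higher, with a median change of -3.41. Others stayed well above the table median at 4 h: S100a8 had 2737, 2444 and 3384 at 4 h, against 29406, 21870.1 and 43246 in bone marrow, and Csf3r, the receptor for granulocyte colony-stimulating factor, had 3973, 4933 and 4386 at 4 h, against 3792, 4702 and 3265 in bone marrow. Within bone marrow, Csf3r was lowest in replicate 3, as Mmp8 was, and its arrays of 4 h and bone marrow overlapped. Over the 10 markers on the array, the summed signal was 9826 to 10402 at 4 h, against 62739.9 to 204015 in bone marrow. At 4 h, 7 of the 10 had a group median above the table median, against 8 of 10 in bone marrow. The part of neutrophil RNA in the Mmp8 signal was not tested.

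**Figure D2:**
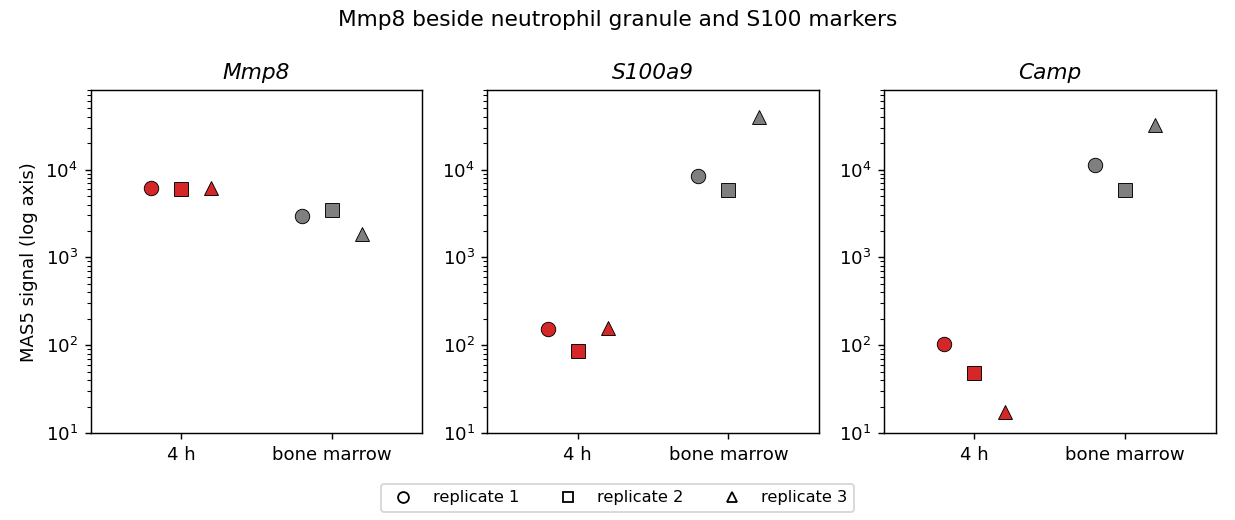
MAS5 signal (log axis) of Mmp8 and of the neutrophil markers S100a9 and Camp in the 3 arrays of 4 h monocytes (left in each panel) and of bone marrow monocytes (right), symbols giving the replicate number. Mmp8 sits higher at 4 h while both markers sit lower, and bone marrow replicate 3 has the lowest Mmp8 and the highest S100a9 and Camp. Csf3r, a marker of the same list that is not drawn, was lowest in that replicate, as Mmp8 was.

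Mmp13, an interstitial collagenase that in the mouse does much of the work done by MMP1 in man, was weak throughout. Its signal was 0.886, 3.15 and 20.7 in bone marrow monocytes, 98.3, 83.8 and 47.4 at 4 h, 29.7, 86.4 and 24.9 at 18 h and 27.7, 45.1 and 2.49 at 72 h. It exceeded the table median in 2 arrays of 4 h and 1 of 18 h, and passed the filter through those arrays alone, so its difference between groups was partly fixed by the filter. In Ly-6B+ macrophages of 168 h it had 35.4, 65.1 and 34.96 and in Ly-6B- macrophages 24.6, 38.9 and 29.5, against 22.7, 14.1 and 16.6 in resident macrophages. The rise at 4 h over bone marrow was 2.03 log2 units (SE 0.482, limma adjusted p = 0.0015), and 0.99 with a pseudocount of 60. No later step was called.

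Mmp12, the macrophage elastase, was not expressed above the table median in any array and was not tested. It had 11.3, 26.8 and 6.09 in bone marrow monocytes, 60.5, 65.8 and 28.2 at 4 h, 58.1, 44.7 and 12.8 at 18 h and 9.24, 13.5 and 31.1 at 72 h. In late macrophages, at 168 h, it had 1.35, 32.2 and 34.5 in the Ly-6B+ group and 8.34, 57.5 and 27.9 in the Ly-6B- group, against 30.3, 10.2 and 5.07 in resident macrophages. The arrays of every other group overlapped those of the resident macrophages. Those of 4 h lay above those of bone marrow monocytes, with a lowest value of 28.2 against a highest of 26.8, all below the table median.

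Mmp9, gelatinase B, which degrades denatured collagen and basement membrane collagen, followed another course. It had 130.02, 125 and 220.1 in bone marrow monocytes, 50.5, 82.8 and 70.0 at 4 h, 606, 818 and 298 at 18 h and 405, 492 and 328 at 72 h. In Ly-6B+ macrophages of 168 h it had 622, 549 and 532 and in Ly-6B- macrophages 264, 241 and 275, against 371, 249 and 307 in resident macrophages. It was lowest at 4 h, when most of the other genes were highest, and its 3 arrays of 4 h lay below all other arrays. The change at 4 h against bone marrow was -1.04 log2 units (SE 0.278, limma adjusted p = 0.00382). It stood close to the fold required and missed it in 6 of 18 alternatives, among them -0.80 without bone marrow replicate 3, -0.88 without 4 h replicate 1 and -0.68 with a common array median. The rise at 18 h over 4 h was 2.74 (adjusted p = 1.52e-07), 6.68-fold. From the highest group down, 168 h Ly-6B+, 18 h, 72 h, resident and 168 h Ly-6B- macrophages formed an order in which the arrays of neighbouring groups overlapped; groups whose arrays do not overlap are called apart below. The second Mmp9 probe set had 17.1, 61.6 and 87.5 in bone marrow monocytes, 2.27, 38.0 and 11.3 at 4 h, 274, 549 and 187 at 18 h and 459.9, 434 and 496 at 72 h. Its arrays of 4 h overlapped those of bone marrow and lay below all later ones. With this probe set the change at 4 h against bone marrow was -1.13 (limma adjusted p = 0.0304), which was called lower.

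Mmp14, or MT1-MMP, is anchored in the membrane, cuts collagen at the cell surface and activates the MMP2 proenzyme. Its signal was 91.0, 49.0 and 68.2 in bone marrow monocytes, 2222, 1969 and 1817 at 4 h, 594, 667 and 486 at 18 h and 464, 365 and 368 at 72 h. Later, at 168 h, it was 131, 181 and 155 in the Ly-6B+ group and 219, 301 and 267 in the Ly-6B- group, against 82.5, 87.0 and 88.7 in resident macrophages. With this probe set, no group from inflamed peritoneum overlapped with the resident macrophages or with bone marrow monocytes. The rise at 4 h was 4.605 log2 units (SE 0.188, limma adjusted p = 1.2e-13), 24.3-fold, and the change at 18 h was -1.76 (adjusted p = 2.8e-07). A second, dimmer Mmp14 probe set had 363, 288 and 243 at 4 h, 85.5, 125 and 35.8 at 18 h and 62.8, 5.18 and 7.92 at 72 h. It too was highest at 4 h, but at 168 h it had 6.24, 35.6 and 8.36 in the Ly-6B+ group and 14.5, 45.6 and 8.83 in the Ly-6B- group, against 9.05, 4.33 and 5.59 in resident macrophages. Its arrays of 72 h and of both 168 h groups overlapped those of resident macrophages. The remaining probe set stayed below the table median in every array, with 41.8, 51.0 and 63.7 at 4 h, and at 168 h in the Ly-6B- group 11.2, 4.35 and 19.4, against 7.25, 25.0 and 4.73 in resident macrophages, which overlapped.

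Mmp19, a secreted metalloproteinase that cuts basement membrane components, was near the floor in bone marrow monocytes and high at 4 h. It had 4.64, 31.7 and 6.71 in bone marrow monocytes, 2123, 2061 and 2585 at 4 h, 266, 187 and 297 at 18 h and 51.7, 68.5 and 44.4 at 72 h. At 168 h it had 40.0, 77.7 and 43.9 in the Ly-6B+ group and 59.8, 62.4 and 50.4 in the Ly-6B- group, against 42.5, 53.2 and 38.1 in resident macrophages. Only the 6 arrays of 4 h and 18 h exceeded the table median, and the gene was tested through them. The rise at 4 h over bone marrow was 6.38 log2 units (SE 0.294, limma adjusted p = 8.68e-13), with no overlap of the arrays, and 4.36 (adjusted p = 9.14e-08) with the gene's other probe set. It fell by 3.12 at 18 h (adjusted p = 5.95e-08) and fell by 1.91 more at 72 h against 18 h (adjusted p = 3.73e-05), and this later fall was not called with its other probe set. From 72 h onward no neighbouring groups in the order of levels were apart.

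Adam8, the membrane sheddase, was lowest in bone marrow monocytes and highest at 4 h. Its signal was 329, 265 and 350.4 in bone marrow monocytes, 13353, 13563 and 15928 at 4 h, 2927, 4078 and 3833 at 18 h and 2332, 3031 and 2529 at 72 h. Among macrophages of 168 h it was 944, 802 and 833 in the Ly-6B+ group and 2895, 2852 and 2301 in the Ly-6B- group, against 1544, 2415 and 2365 in resident macrophages. The 4 h arrays stood above every other array, and every peritoneal group stood above bone marrow. The rise at 4 h was 5.44 log2 units (SE 0.171, limma adjusted p = 2.21e-15), 43.5-fold, and the change at 18 h was -1.99 (adjusted p = 1.78e-08). In the order of levels, Ly-6B- macrophages of 168 h, 72 h macrophages and resident macrophages were neighbours that were not apart, and the Ly-6B+ group stood below all other peritoneal groups.

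The inhibitors took opposite courses. Timp1, an inducible secreted inhibitor that also acts as a growth factor, had 80.8, 50.2 and 53.9 in bone marrow monocytes, 3775, 4422 and 5313 at 4 h, 1583, 1879 and 1833 at 18 h and 751, 789.9 and 878 at 72 h. At 168 h it had 78.7, 64.1 and 134 in the Ly-6B+ group and 91.5, 94.4 and 126 in the Ly-6B- group, against 62.7, 98.4 and 54.1 in resident macrophages. It rose by 5.89 log2 units at 4 h over bone marrow (SE 0.228, limma adjusted p = 6.06e-14), fell by 1.33 at 18 h (adjusted p = 8.17e-05) and fell by 1.11 at 72 h against 18 h (adjusted p = 0.000738). At 72 h it was still 9.67-fold above resident macrophages (3.27, adjusted p = 2.43e-08), whereas by 168 h neither macrophage group was apart from resident macrophages.

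Timp2, the inhibitor that many cells make constitutively, had 328, 311 and 311 in bone marrow monocytes, 422, 963 and 473 at 4 h, 5370.0, 3674 and 4744 at 18 h and 20309.5, 23453 and 26901 at 72 h. By 168 h it had 14716, 18744 and 19279.8 in the Ly-6B+ group and 23739.7, 26177 and 31176 in the Ly-6B- group, against 27899.7, 26710.2 and 29638 in resident macrophages. The signal was thus lowest in both monocyte groups, intermediate at 18 h and highest in the macrophage groups. It rose by 2.94 log2 units at 18 h over 4 h (SE 0.214, limma adjusted p = 1.8e-09) and by 2.36 at 72 h over 18 h (adjusted p = 4.33e-08). At the top of the order, resident macrophages, Ly-6B- macrophages and 72 h macrophages had overlapping arrays. The 72 h arrays lay above those of the Ly-6B+ group next below, by 0.42 log2 units, which was not called (limma adjusted p = 0.364). Each of the 4 other probe sets tested was called higher in both steps as well. At 4 h over bone marrow the change was 0.84 (adjusted p = 0.00273), short of the fold required. This change moved with the probe set and with single arrays: 2 other probe sets gave -0.40 and -0.027, the mean of probe sets gave 0.17, and it was 0.48 without 4 h replicate 2, 1.06 without 4 h replicate 1 and 1.202 with a common array median. The highest 4 h array for Timp2 was replicate 2, which also held the most resident macrophage marker signal: Alox15, a lipoxygenase of resident peritoneal macrophages, had 131, 2199.8 and 156 at 4 h. The 11 resident macrophage markers on the array summed to 3104 to 11491 at 4 h, against 237 to 422 in bone marrow, and to 27515 to 28543 at 18 h and 161886 to 217821 at 72 h. Their part in the Timp2 changes was not tested.

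Monocytes of the inflamed cavity at 4 h were set against monocytes of naive bone marrow. Of the 8 genes tested, 7 were called, where 22% of all genes tested were. Of these, 6 were higher (Mmp8, Mmp13, Mmp14, Mmp19, Timp1, Adam8), against a background of 7.5%, and 1 was lower (Mmp9), against 14.5%. The arrays of the 2 groups did not overlap for 8 of 8 genes, where that held for 54.7% of all genes. Since Mmp13 and Mmp19 entered the test only through their high groups, the count of 6 includes genes that the filter favoured. Without the 3 arrays named above, 5 were called, with Mmp8 and Mmp9 short of the fold. The median gene changed by -0.14 at 4 h. With a common array median, the calls over all genes divided into 59.1% higher, against 34.1% higher in the deposited scaling. Mesothelial or fibroblast markers summed to 428 to 592 at 4 h, against 392 to 650.1 in bone marrow, with 10 of 12 at or below the table median at 4 h and 11 of 12 in bone marrow.

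**Figure D3:**
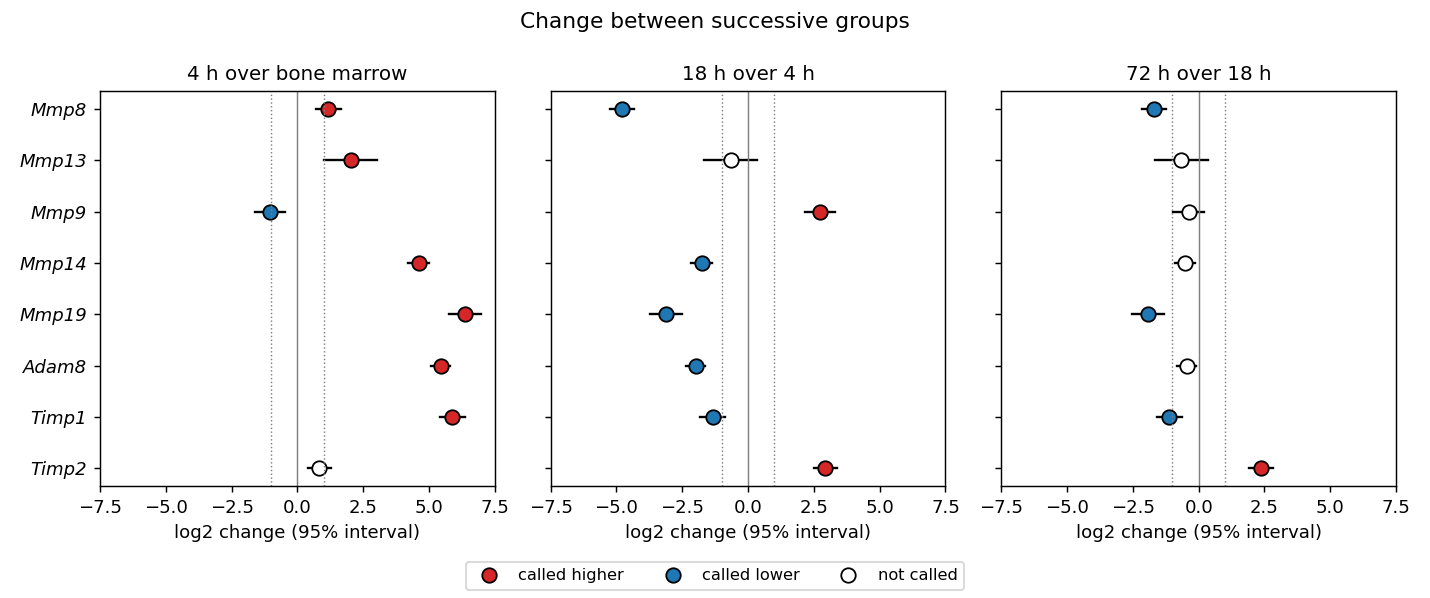
Change in log2(signal + 15) of the 8 genes tested at 4 h over bone marrow, 18 h over 4 h and 72 h over 18 h, with limma's 95% interval as a line, filled points for called changes and dotted lines at a change of 1. Mmp14, Mmp19, Adam8 and Timp1 lie right of 0 in the first panel and left of it in the second, whereas Timp2 lies right of 0 in all 3 panels and Mmp9 moves right in the second.

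Of other members of the enzyme families tested at 4 h, 3 of 12 were called, beside 22% of all genes. Of 17 other Mmp genes, 3 were tested (Mmp2, Mmp17 and Mmp24) and 0 were called in any of the 8 comparisons, with 1 of those 24 limma tests at an unadjusted p under 0.05. Of 9 other Adam and Adamts genes tested, 1 was higher at 4 h and 2 were lower. Adam9, a widely expressed sheddase, averaged 11276 ± 797 at 4 h and 1900.2 ± 387 in bone marrow (SD, n = 3 each), a change of 2.58 (limma adjusted p = 2.81e-12). Adam19 changed by -1.13 (adjusted p = 0.0366). The median change of the 9 was 0.08, beside -0.14 over all genes tested. Reck, a membrane-anchored inhibitor of metalloproteinases, had 4.67, 2.21 and 19.9 at 4 h, against 105, 66.9 and 389 in bone marrow. It fell by 2.80 (adjusted p = 0.000168), and its highest bone marrow array was again replicate 3.

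The proteinases and inhibitors that open or clear such enzymes divided evenly at 4 h, with 5 higher and 5 lower of 12 tested and a median of 0.42. Over all genes tested, 7.5% were higher and 14.5% lower, with a median of -0.14. Serpinb2, the inhibitor of urokinase known as PAI-2, averaged 6199.8 ± 857 at 4 h and 24.4 ± 3.36 in bone marrow (SD, n = 3 each), a change of 7.30 (limma adjusted p = 2.21e-15). Ctsg, the azurophil granule proteinase cathepsin G, averaged 100.0 ± 15.3 at 4 h and 11382 ± 5399 in bone marrow, a change of -6.53 (adjusted p = 1.33e-08). Ctsg is also a marker of granulocyte and monocyte progenitors, as are Elane and Prtn3, which were called lower too. Lcn2, likewise among the 5 lower, stands in the neutrophil marker list. The 9 progenitor markers on the array summed to 1277 to 1629 at 4 h, against 35294 to 95548 in bone marrow. The part of such cells in these falls was not tested.

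Matrix and cell surface proteoglycan genes, some of whose products are substrates of these enzymes, included 7 higher and 0 lower of 13 tested at 4 h. Their median was 1.44, beside -0.14 for all genes tested, of which 7.5% were higher and 14.5% lower. Both examples are syndecans, cell surface proteoglycans: Sdc4 changed by 5.42 (limma adjusted p = 4.43e-12) and Sdc1 by 4.72 (adjusted p = 2.23e-10). Of 11 cytokines known to act on Mmp and Timp genes, 7 were higher and 0 lower, with a median of 1.27. Il1b, which encodes interleukin-1 beta, averaged 19912 ± 1492 at 4 h and 789 ± 473 in bone marrow (SD, n = 3 each), a change of 4.78 (adjusted p = 8.32e-09). Il1a changed by 4.95 (adjusted p = 4.45e-09).

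Of 19 factors of the AP-1, C/EBP, ETS and NF-kB families, with Runx1 counted among them, 6 were higher and 1 was lower at 4 h. Their median was 0.77, beside -0.14 for all genes tested, of which 7.5% were higher and 14.5% lower. Ets2, an ETS factor, averaged 12346 ± 927 at 4 h and 2200.4 ± 498 in bone marrow (SD, n = 3 each), a change of 2.50 (limma adjusted p = 9.2e-10). Fosb, an AP-1 subunit, was the one that fell, with 316, 270.2 and 138 at 4 h, against 5876, 5567 and 6221 in bone marrow, a change of -4.597 (adjusted p = 2.51e-10).

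At 18 h, most of the genes that had been called higher at 4 h were lower again. Of the 8 tested, 5 fell (Mmp8, Mmp14, Mmp19, Timp1, Adam8), where 4.56% of all genes did, and 2 rose (Mmp9, Timp2), where 10.9% did. Calls in either direction covered 15.5% of all genes. Between 18 h and 4 h, 7 of the 8 genes had arrays apart, against 50.1% of all genes, and the exception was Mmp13, with a change of -0.65 (limma adjusted p = 0.312). This comparison shares the 4 h arrays with the one before, so a gene high in those arrays counts in both. Mmp13 and Mmp19 passed the filter through arrays of these 2 groups alone. The median gene changed by 0.14. All 7 calls stood without the 3 arrays named above.

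Among the related lists at 18 h against 4 h, 0 of 9 other Adam and Adamts genes were called. Of all genes tested, 10.9% rose and 4.56% fell. Of 12 activators and clearance genes 3 fell and 0 rose, with a median of -0.37 beside 0.14 for all genes. Lcn2, a lipocalin that binds MMP9 and is also listed among the neutrophil markers, averaged 209 ± 28.9 at 18 h and 2091 ± 277 at 4 h (SD, n = 3 each), a change of -3.23 (limma adjusted p = 1.01e-05). Plaur, the urokinase receptor, changed by -1.15 (adjusted p = 3.45e-06). Of 13 matrix components, 2 rose and 5 fell. Thbs1, thrombospondin 1, changed by -3.17 (adjusted p = 2.18e-07), and Sdc1 by -2.69 (adjusted p = 1.07e-06). The transcription factors included 0 higher and 7 lower of 19, led by the AP-1 subunit Fosl1 with -2.23 (adjusted p = 0.000116) and by Runx1 with -1.70 (adjusted p = 0.00074). Of the 11 cytokines, 1 rose and 5 fell: Tgfb2 changed by 2.30 (adjusted p = 8.46e-06) and Il1b by -2.26 (adjusted p = 0.000195).

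At 72 h against 18 h, the fall went on for 3 genes (Mmp8, Mmp19, Timp1), where 3.46% of all genes fell, and the rise for 1 (Timp2), where 9.03% rose. Calls in either direction covered 12.5% of all genes. Mmp19 entered the test only through arrays of 4 h and 18 h, so the filter favoured its fall. At 72 h and 18 h, 5 of the 8 had arrays apart, against 41% of all genes. Mmp8 changed by -1.69 log2 units (SE 0.221, limma adjusted p = 5.4e-06). Mmp14 changed by -0.53 (adjusted p = 0.039) and Adam8 by -0.45 (adjusted p = 0.0519), both short of the fold. With the dimmer Mmp14 probe set the change was -1.44 (limma adjusted p = 0.0434), which was called lower. Mmp9 changed by -0.38 (adjusted p = 0.334), with a 95% interval of -0.963 to 0.20.

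In the same step, 5 of 12 activators and clearance genes rose and 0 fell, with a median of 0.67 beside 0.03 for all genes. Of all genes tested, 9.03% rose and 3.46% fell. Serpinb1a, an inhibitor of neutrophil serine proteinases, averaged 11087 ± 608 at 72 h and 1960.3 ± 719.9 at 18 h (SD, n = 3 each), a change of 2.55 (limma adjusted p = 1.12e-06). Prtn3, proteinase 3, changed by 1.93 (limma adjusted p = 6.51e-07), and it too stands in the progenitor marker list. At 72 h, 7 of the 9 markers of that list on the array were at or below the table median. Prtn3 had 5206, 4767 and 7838 at 72 h, where the list summed to 5443 to 8090. In resident macrophages it had 5924, 7536 and 8998. The part of progenitor cells in its rise was not tested. Reck rose by 1.68 (adjusted p = 0.0194), and Adam19 fell by 1.89 (adjusted p = 0.00193). Of 13 matrix components, 2 rose and 3 fell, with -4.65 for the proteoglycan Vcan (adjusted p = 8.15e-12) and -2.64 for Sdc4 (adjusted p = 3.88e-07). Vcan is also a monocyte marker, and the 6 monocyte markers on the array summed to 13763 to 22939 at 72 h, against 67562 to 79002 at 18 h. Of the 19 factors, 1 fell (Fosl1, -1.30, adjusted p = 0.0157). Tgfb2, transforming growth factor beta 2, averaged 10834 ± 2494 at 72 h and 330.1 ± 45.5 at 18 h, a change of 4.95 (adjusted p = 4.34e-10), and Il1b changed by -4.03 (adjusted p = 2.83e-07).

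Within the macrophages of 168 h, the Ly-6B+ group had more Mmp9 and less Adam8 than the Ly-6B- group. These 2 of 8 genes were called, where 3.94% of all genes were (1.54% higher and 2.41% lower). Mmp9 differed by 1.08 log2 units (SE 0.278, limma adjusted p = 0.0165), with all 3 Ly-6B+ arrays above all 3 Ly-6B- arrays. That call sat at the edge of the fold and was lost in 5 of 18 alternatives, among them the second Mmp9 probe set (0.90, adjusted p = 0.225), without Ly-6B+ replicate 1 (adjusted p = 0.0678) and without Ly-6B- replicate 2 (adjusted p = 0.0602). Adam8 differed by -1.62 (SE 0.171, adjusted p = 1.74e-06), 3.08-fold lower in the Ly-6B+ group. Mmp14 differed by -0.70 (adjusted p = 0.0232) and Timp2 by -0.62 (adjusted p = 0.0851), both short of a call. For 5 of 8 genes the Ly-6B+ and Ly-6B- arrays were apart, as for 25.1% of all genes. The 6 monocyte markers summed to 32689.7 to 35472 in Ly-6B+ cells, against 3449 to 6373 in Ly-6B- cells, and the 11 resident markers to 106703 to 137115 in Ly-6B+ cells, against 211030.0 to 253622 in Ly-6B- cells. The 10 neutrophil markers summed to 5424 to 6574 in Ly-6B+ cells, against 4005 to 5415 in Ly-6B- cells. In resident macrophages the sum was 6454 to 6677, of which Csf3r gave 5756, 5706 and 5831. Between the 168 h groups, 2 of the 9 tested were called higher and 0 lower, with a median of 0.68 beside -0.02 for all genes. S100a9 had 76.0, 57.3 and 52.1 in the Ly-6B+ group, against 9.82, 3.56 and 7.11 in the Ly-6B- group, all below the table median. The part of any of these in the differences was not tested.

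Of the related lists between the 168 h groups, 3 of 12 activators and clearance genes were lower in the Ly-6B+ group and 0 were higher. Of all genes tested, 2.41% were lower and 1.54% higher. Serpinb2 averaged 8750.5 ± 2049 in the Ly-6B+ group and 24763 ± 1619.9 in the Ly-6B- group (SD, n = 3 each), a difference of -1.52 (limma adjusted p = 0.000108), and Serpinb1a differed by -1.37 (adjusted p = 0.00408). Tgfb2 averaged 1527 ± 249 in the Ly-6B+ group and 14307 ± 2564 in the Ly-6B- group, a difference of -3.21 (adjusted p = 8.18e-07). Il1b differed by 1.44 (adjusted p = 0.0374), and among 13 matrix components Sdc1 alone was called, with 1.77 (adjusted p = 0.000872). None of the 19 factors or the 9 other Adam and Adamts genes was called.

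Against resident macrophages, which came from naive mice, Mmp14 was the one gene of the 8 called in Ly-6B- macrophages of 168 h. There it averaged 262 ± 41.2 and in resident macrophages 86.0 ± 3.22 (SD, n = 3 each), a difference of 1.45 log2 units (SE 0.188, limma adjusted p = 0.00264), or 2.72-fold. It was 1 of 5 genes called among 12169 (0.0411%), the others being Basp1, Flrt3, Noct and Vegfa, named here after their values were seen. Vegfa, the vascular endothelial growth factor, had 188, 124 and 179 in Ly-6B- macrophages, against 17.1, 13.9 and 49.1 in resident macrophages. For 2 of the 8 genes the arrays were apart, as for 8.61% of all genes. The Mmp14 call was lost with only these 6 arrays in the fit (adjusted p = 0.131), with the mean of its probe sets (0.72) and with its dimmer probe set (0.72, adjusted p = 1). The resident macrophage markers summed to 211030.0 to 253622 in Ly-6B- macrophages, against 228429 to 253547 in resident macrophages.

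In Ly-6B+ macrophages of 168 h against resident macrophages, Adam8 alone was called of the 8 genes, where 4.38% of all genes were (1.98% higher and 2.4% lower), with -1.25 (SE 0.171, limma adjusted p = 3.89e-05). Mmp14 differed by 0.75 (adjusted p = 0.0128), Mmp9 by 0.86 (adjusted p = 0.0587), Timp2 by -0.68 (adjusted p = 0.0497) and Mmp8 by -0.70 (adjusted p = 0.0512), none of them called. For 6 of the 8 the arrays were apart, as for 27.9% of all genes. In macrophages of 72 h against resident macrophages, Timp1 and Mmp14 were called, both higher, where 0.731% of all genes were (0.707% higher and 0.0247% lower). They were also the 2 of the 8 whose arrays were apart, as were those of 15.4% of all genes. Mmp14 averaged 399 ± 56.5 at 72 h and 86.0 ± 3.22 in resident macrophages (SD, n = 3 each), a difference of 2.03 (adjusted p = 1.57e-06), which the dimmer probe set gave as 0.64 (adjusted p = 0.763). The 3 comparisons share the resident arrays.

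**Figure D4:**
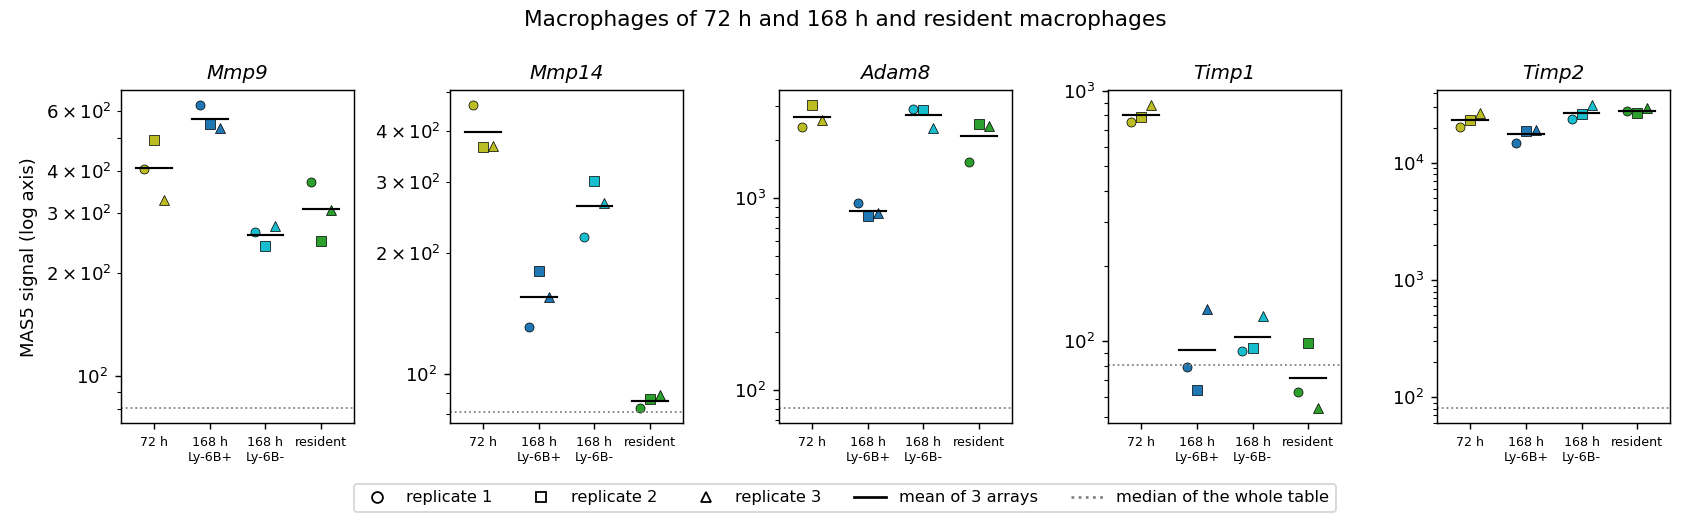
MAS5 signal (log axis, a range of its own in each panel) of Mmp9, Mmp14, Adam8, Timp1 and Timp2 in macrophages of 72 h, both groups of 168 h and resident macrophages, with replicate symbols, the mean of 3 arrays as a bar and the table median as a dotted line. Adam8 is lowest in the Ly-6B+ group, Mmp14 lies above resident macrophages in the other 3 groups, and Timp1 is high at 72 h alone.

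Resident macrophages also differed from bone marrow monocytes, the 2 naive groups, in 4 of the 8 genes, 3 higher and 1 lower, where 23.1% of all genes were called (12.9% higher and 10.2% lower). For 5 of the 8 the arrays were apart, as for 56.1% of all genes. Timp2 was higher by 6.40 log2 units (SE 0.214, limma adjusted p = 2.41e-15), 84.6-fold, and Adam8 by 2.67 (adjusted p = 5.53e-11). Mmp8 was lower, at -4.98 (adjusted p = 1.67e-13). Mmp19 differed by 1.13 (adjusted p = 0.00326) with all 6 arrays below the table median. Its other probe set gave -0.0834 (adjusted p = 0.899), and the call was lost in 6 further alternatives. Mmp9 differed by 0.93 (adjusted p = 0.00895), under the fold required, and was called in 5 of 18 alternatives, with 2.33 for its second probe set (adjusted p = 8.11e-05). In the related lists, Ecm1, a secreted matrix protein, differed by 6.89 (adjusted p = 8.93e-21), Tgfb2 by 8.27 (adjusted p = 2.12e-14) and Serpinb2 by 9.31 (adjusted p = 3.66e-17). Of 19 factors 7 were lower and 0 higher.

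Likeness of course was measured as the root-mean-square difference, in log2 units, between the 7 group means of a pair of genes after each was centred, so that 0 means the same shape and size of change. It is a description over 7 groups. Among the 8 genes themselves, Mmp14 and Adam8 were closest (0.71), then Mmp14 and Mmp19 (0.81), Mmp19 and Adam8 (0.94) and Mmp14 and Timp1 (0.97). The longest distances were those of Timp2 from Mmp8 (5.08) and from Timp1 (3.86). By nearest member, Mmp8 stood 2.31 from Mmp19 and Timp2 1.97 from Mmp9.

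Of 6349 genes whose group means spanned at least 1 log2 unit, those most like Mmp9 were Irf4 (0.15), Dennd2a (0.30) and Ajuba (0.32). For Timp2 they were Cgnl1 (0.34), Ephx1 (0.37) and Arhgef12 (0.39). For Mmp14 they were Flrt3 (0.49), Gpat3 (0.50) and Ell2 (0.51), the first of which was also 1 of the 5 genes called between Ly-6B- and resident macrophages. Mmp19 was most like Cxcl3 (0.46), a neutrophil chemoattractant, then Piwil2 (0.48) and Clec4n (0.52), the receptor Dectin-2. Adam8 had Cdk20 (0.61), Nab2 (0.61) and Abtb2 (0.65), and Mmp13 had Cd80 (0.16), Ets2 (0.19) and E230013L22Rik (0.20). Mmp13 exceeded the table median in only 3 arrays, and its group differences had an SE of 0.48 log2 units. That is larger than these distances, so its nearest genes are uncertain. Mmp8 and Timp1 had more distant nearest genes, Il1r2 (0.93), the interleukin-1 decoy receptor, and AA467197 (0.70).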

How the data were processed

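Biotin-labelled RNA of 21 sorted samples, 3 in each of 7 groups, was hybridised to Affymetrix arrays after 2 cycles of amplification, per the labels. The authors computed linear MAS5 signal intensity with Affymetrix Expression Console 1.2, per the submitters' processing notes, and deposited those values. The 2% trimmed mean was 500.0 in each array, checked on the values. No counts stand behind them, so precision rests on 3 arrays a group. The table held 45101 probe sets, of which 34958 had 1 gene symbol in the platform annotation, 932 several and 9211 none listed; the last 2 kinds were not used.

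Values were taken as log2(signal + 15), 15 being near the 20th percentile. Each gene was read from the probe set with the highest mean, and genes above the table median in at least 3 arrays were tested. One limma model (version 3.58.1, R 4.3.3; lmFit, then eBayes with trend) took in all 21 arrays, 14 residual degrees of freedom, 2-sided, with Benjamini-Hochberg adjustment. The script was tested on simulated data. The 9 genes, the related lists and the markers were chosen with earlier results of these data known. Names in related lists are the 2 called members with the largest change in a comparison, and the 3 nearest genes by likeness. Elane, Prtn3 and Lcn2 were also named at 4 h, because they stand in the cell type marker lists. Of the related genes, 12 of 17 other Mmp genes, 3 of 3 Timp genes and Reck, 19 of 20 Adam and Adamts genes, 16 of 17 activators, 16 of 17 matrix components, 19 of 20 factors and 12 of 12 cytokines were on the array. Residuals of arrays with the same replicate number correlated above 0.1 for all 3 numbers in the 168 h groups alone (0.296, 0.276 and 0.178). The main model did not pair them, so the p-values given for the 168 h groups are unpaired. Replicate number entered only as a block among the alternatives. Alternatives were other pseudocounts, scalings, filters and probe sets, no trend, the replicate block, only the 6 arrays compared, and arrays left out.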

Additional observations from a re-analysis of the deposited data

How the results depend on the processing

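Of 1136 recomputed changes of the 8 genes, 1081 kept their direction and their side of the threshold, 25 lost a call, 8 gained one and 22 turned sign. Of these, 1 had been called: Mmp19 in resident macrophages over bone marrow monocytes, -0.083 with its other probe set. The other 21 were not called either way. With other probe sets, Timp2 was -0.40 and -0.027 at 4 h over bone marrow and 0.30, 0.098 and 0.22 in Ly-6B- over resident macrophages, Mmp9 was 0.58 at 72 h over 18 h and 0.17 in Ly-6B- over resident macrophages, and Mmp19 was 0.48 in Ly-6B+ over Ly-6B- macrophages. With the mean of probe sets, the values were 0.16 (Timp2, Ly-6B- over resident), 0.096 (Mmp9, 72 h over 18 h) and 0.19 (Mmp19, Ly-6B+ over Ly-6B-). Timp2 in Ly-6B- over resident macrophages was 0.023 with quantile normalization. Mmp13 at 72 h over resident macrophages was -0.15 with a pseudocount of 1 and -0.25 without the 3 arrays that stand apart. With 1 array left out at a time, Timp2 in Ly-6B- over resident ranged from -0.17 to 0.026, Mmp19 from -0.35 to 0.031 in Ly-6B+ over Ly-6B- and from -0.059 to 0.32 in Ly-6B+ over resident, Timp1 from -0.46 to 0.0036 in Ly-6B+ over Ly-6B- and from -0.044 to 0.34 in resident over bone marrow, and Mmp13 at 72 h over resident from -0.25 to 0.64. The number of the genes called in Ly-6B+ against Ly-6B- macrophages of 168 h was 2 and became 1 with a pseudocount of 60 and 1 with the mean of probe sets; leaving out 1 array gave 1 to 2. In Ly-6B- against resident macrophages it was 1 and became 0 with the mean of probe sets and 0 with only the 6 arrays compared. The all-gene counts in that comparison were 5 in the full data, 0 with only the 6 arrays compared, and 2 to 9 with 1 array left out. In 72 h against resident macrophages they were 89, 50 with only the 6 arrays compared, and up to 193 with 1 array (72 h replicate 3) left out. Counts of the genes called in the other comparisons stayed within 1.5 times. With the replicate block, 2 genes were called between the 168 h groups and 495 of all genes (480 without it), and the block changed no other count of the 8 genes. The causes were not tested. Genes near the floor, Mmp12 and Mmp13, were limited by signal over background: Mmp12 exceeded the table median in 0 arrays and Mmp13 in 3.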

Other observations

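Genes that work with the 9 in other tissues were read in the same arrays, chosen for those roles after their values were seen. Mmp2, the gelatinase whose proenzyme MMP14 and TIMP2 bring to the cell surface, had 56.0, 51.8 and 58.6 in bone marrow monocytes, 72.2, 61.9 and 63.1 at 4 h, 40.9, 62.2 and 88.6 at 18 h and 83.4, 106 and 92.5 at 72 h. At 168 h it had 67.8, 60.1 and 80.6 in Ly-6B+ and 109, 70.1 and 73.7 in Ly-6B- macrophages, against 101, 104 and 84.3 in resident macrophages. It thus ran from 40.9 to 109, about the table median of 80.6, in groups that differed widely in Mmp14 and Timp2. Mmp2 was higher in resident macrophages than in bone marrow monocytes by 0.66 log2 units (limma adjusted p = 0.0347). Those arrays did not overlap, but the difference was under the fold required. Timp3, a matrix-bound inhibitor, had 59.6, 49.5 and 53.6 at 4 h, against 30.0, 41.7 and 68.2 in bone marrow monocytes, and these arrays overlapped. The sheddases Adam10 and Adam17 were called in 0 of 8 comparisons each in limma, with an unadjusted p under 0.05 in 4 for Adam10 and 2 for Adam17. Adam17, which releases tumour necrosis factor, had 4670.5, 4435 and 3953 at 4 h, against 2634, 2793 and 2371 in bone marrow monocytes, with no overlap and a change of 0.74 (limma adjusted p = 4.64e-05), under the fold required. Adam10 had 10862, 11497 and 11308 at 18 h, against 8174, 6326 and 5452 at 4 h, also with no overlap.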
